A study of Mus musculus with 14 samples.

Results

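Cytochrome P450 enzymes of families 2 and 3 oxidise drugs, plant compounds, steroids and fatty acids, and 10 of their mouse genes were followed here through the ileum around weaning and after injected interleukin-22. The 10 genes, Cyp3a11, Cyp3a13, Cyp3a25, Cyp2b10, Cyp2c29, Cyp2c55, Cyp2c65, Cyp2c66, Cyp2d26 and Cyp2j6, were taken by symbol from the 46855 entries of the expression table, which holds 46 further Cyp2 and Cyp3 genes. The series profiled whole ileum, the last stretch of the small intestine, by RNA sequencing in 14 libraries of wild-type C57BL/6N mice. The P14 group held 4 libraries of untreated mice at postnatal day 14, and the P24 group held 4 of untreated mice at day 24. The PBS group held 3 libraries of mice given saline in 100 µL at days 14 and 15 and killed at day 16, and the rmIl22 group held 3 of mice given recombinant mouse IL-22 at 0.1 µg per g body weight on the same days. The age field of the labels instead gives day 14 for PBS and day 24 for rmIl22, and the groups were taken from the titles. The labels call the replicates biological, and p-values measure the spread between these libraries.

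P450 enzymes sit in the endoplasmic reticulum, carry a heme group and receive electrons from P450 oxidoreductase (Por). In the gut they are found mainly in enterocytes, where they form a first barrier to swallowed chemicals. Many Cyp3a genes are switched on through the pregnane X receptor (PXR, gene Nr1i2) and many Cyp2b and Cyp2c genes through the constitutive androstane receptor (CAR, gene Nr1i3), both sensors of foreign chemicals and bile acids, and in liver cells inflammatory cytokines are known to lower many of them.

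The upstream sequences below are shown because Cyp3a11 and Cyp3a25 were the members at lower levels after rmIl22, and because Cyp2c65 and Cyp2c66 are near copies that differed widely in level. They come from RefSeq (build GRCm38.p6), which held a promoter for all 10 members, and run 5′ to 3′ on the gene's strand from 250 bases before the RefSeq start. The Cyp3a11 sequence stops 111 bases before that start, where the first GENCODE M21 exon begins. In the Cyp3a genes capitals mark AGGTCA or AGTTCA on either strand, the half-sites that nuclear receptors such as PXR can bind. In the Cyp2c genes they mark CAAAGTCCA, a form of the HNF4 motif, and the bases of Cyp2c66 aligned to it.
Cyp3a11 (chr5:145879965-145880104, minus strand): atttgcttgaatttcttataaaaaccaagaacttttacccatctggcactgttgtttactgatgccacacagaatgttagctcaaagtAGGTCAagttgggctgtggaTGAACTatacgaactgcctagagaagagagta
Cyp3a25 (chr5:146009619-146009868, minus strand): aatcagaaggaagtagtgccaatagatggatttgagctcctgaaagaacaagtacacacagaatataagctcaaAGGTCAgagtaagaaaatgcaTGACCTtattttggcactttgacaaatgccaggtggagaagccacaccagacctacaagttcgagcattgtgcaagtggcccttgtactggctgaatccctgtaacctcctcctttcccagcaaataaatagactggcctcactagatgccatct
Cyp2c65 (chr19:39060756-39061005, plus strand): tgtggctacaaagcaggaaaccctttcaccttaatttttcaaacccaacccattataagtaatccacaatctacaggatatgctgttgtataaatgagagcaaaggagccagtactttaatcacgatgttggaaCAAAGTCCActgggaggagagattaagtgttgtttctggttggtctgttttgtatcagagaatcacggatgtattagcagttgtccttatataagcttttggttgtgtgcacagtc
Cyp2c66 (chr19:39113648-39113897, plus strand): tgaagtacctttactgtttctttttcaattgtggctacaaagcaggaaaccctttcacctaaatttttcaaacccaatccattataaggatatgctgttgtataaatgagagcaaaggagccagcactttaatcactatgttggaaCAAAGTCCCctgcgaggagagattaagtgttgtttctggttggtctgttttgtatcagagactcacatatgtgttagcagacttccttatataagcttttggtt
AGGTCA, read on both strands, was found in 3 of the 10 member promoters (Cyp3a11, Cyp3a25 and Cyp2c29) and in 13.8% of 27025 promoters of the same length. AGTTCA was found in 1 member promoter, that of Cyp3a11, and in 11.9% of all. CAAAGTCCA was found in Cyp2c65 and, at bases -109 to -101 and so just past the stretch shown, in Cyp3a11, against 0.381% of all promoters. TTCNNNGAA, the STAT motif, was in 7.18% of all promoters, and its letters were in 0 of the 10 member windows. Cyp2c65 and Cyp2c66 were 94.1% identical over 221 aligned bases, and every other pair of member promoters was at most 65.1% identical. Their 13 substitutions included A143C inside the CAAAGTCCA match (Cyp2c65 base first, positions counted from 1 at its 5′ end, Cyp2c66 base last). A match of letters is a description and shows no binding.

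In GENCODE M21 (mm10) coordinates, Cyp2c55 (chr19:39007019-39042693), Cyp2c65 (chr19:39061015-39093944) and Cyp2c66 (chr19:39113898-39187072) follow each other on the plus strand, with gaps of 18.3 and 20 kb. Cyp3a11 (chr5:145854426-145879964) and Cyp3a25 (chr5:145977194-146009618) lie 97.2 kb apart on the minus strand, while Cyp3a13 (chr5:137892932-137921619) lies elsewhere on chromosome 5. The coding sequences of Cyp2c65 and Cyp2c66 were 96.3% identical. Cyp3a11 was 94.9% identical to Cyp3a44 and 92.8% to Cyp3a16, and Cyp3a25 was 97.5% identical to Cyp3a59. Reads of such pairs may have been split or lost in the authors' counting, so the levels of these genes carry that uncertainty.

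Each library held 35.6 to 46.5 M reads assigned to genes, as recovered from the deposited TPM. TPM, the share of transcripts, scales reads by gene length and by library, and allows levels to be compared between genes. Libraries of 1 group differed in regional markers. Gata4, a transcription factor of the proximal small intestine, was at 10.8 to 17.4 TPM in PBS and at 15.8 in rmIl22 library 2, but only 0.0983 and 0.177 TPM were read for rmIl22 libraries 1 and 3. P14 libraries 1 and 2 had 0.119 and 0.378 TPM of it, against 6.57 and 7.51 for libraries 4 and 5. In P24 it ranged from 0.145 to 1.36. Over all 4 proximal markers (Gata4, Lct, Cybrd1, Fabp1), the summed level ranged from 762 to 2175 TPM in PBS, 71 to 1241 in rmIl22, 50.4 to 704 in P14 and 11.6 to 15.1 in P24. Over the 5 colon markers it ranged from 46.8 to 55.3 in PBS and 36.3 to 1872 in rmIl22, where Car1, a carbonic anhydrase of colon epithelium, reached 1738 TPM in library 1. In P14 and P24 that sum was 23.2 to 33 and 47.4 to 115. Xist, transcribed from the inactive X chromosome of females, was near 0 in all 3 PBS libraries (at most 0.094 TPM) and at 28.4 and 53.5 in rmIl22 libraries 2 and 3. Over 7 hepatocyte markers the sum was 138 to 179 TPM in P14, 7.59 to 13 in P24, 118 to 144 in PBS and 24.5 to 48.5 in rmIl22. Of these, Alb was at most 0.181 TPM and Cyp7a1 at 0 in every library, while Ttr reached 165. Fgb was at 7.62 to 14.2 TPM in P14 and 0.011 to 0.136 in P24, and at 3 to 4.49 in PBS and 1.57 to 5.99 in rmIl22.

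The members spanned a wide range of levels. Cyp3a13, the Cyp3a form best known from mouse gut, and Cyp2j6, of a subfamily that makes epoxides from arachidonic acid, were the most abundant, at 104 to 258 and 65.2 to 189 TPM. Cyp2d26, Cyp2c65, Cyp3a25 and Cyp2c55 ranged over 4.61 to 99.3, 1.6 to 90.2, 3.8 to 60.4 and 0.736 to 171 TPM. Cyp3a11, a major Cyp3a of mouse liver and a classic PXR target, ranged from 0.225 to 8.34 TPM. Cyp2c66 stayed under 5 TPM and Cyp2b10, the classic CAR target, under 1. Cyp2c29, an abundant liver form, was listed at 0 in all 14 libraries, which allows up to 3 reads in each. The plot of levels by library shows the other 9 genes.

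**Figure D1:**
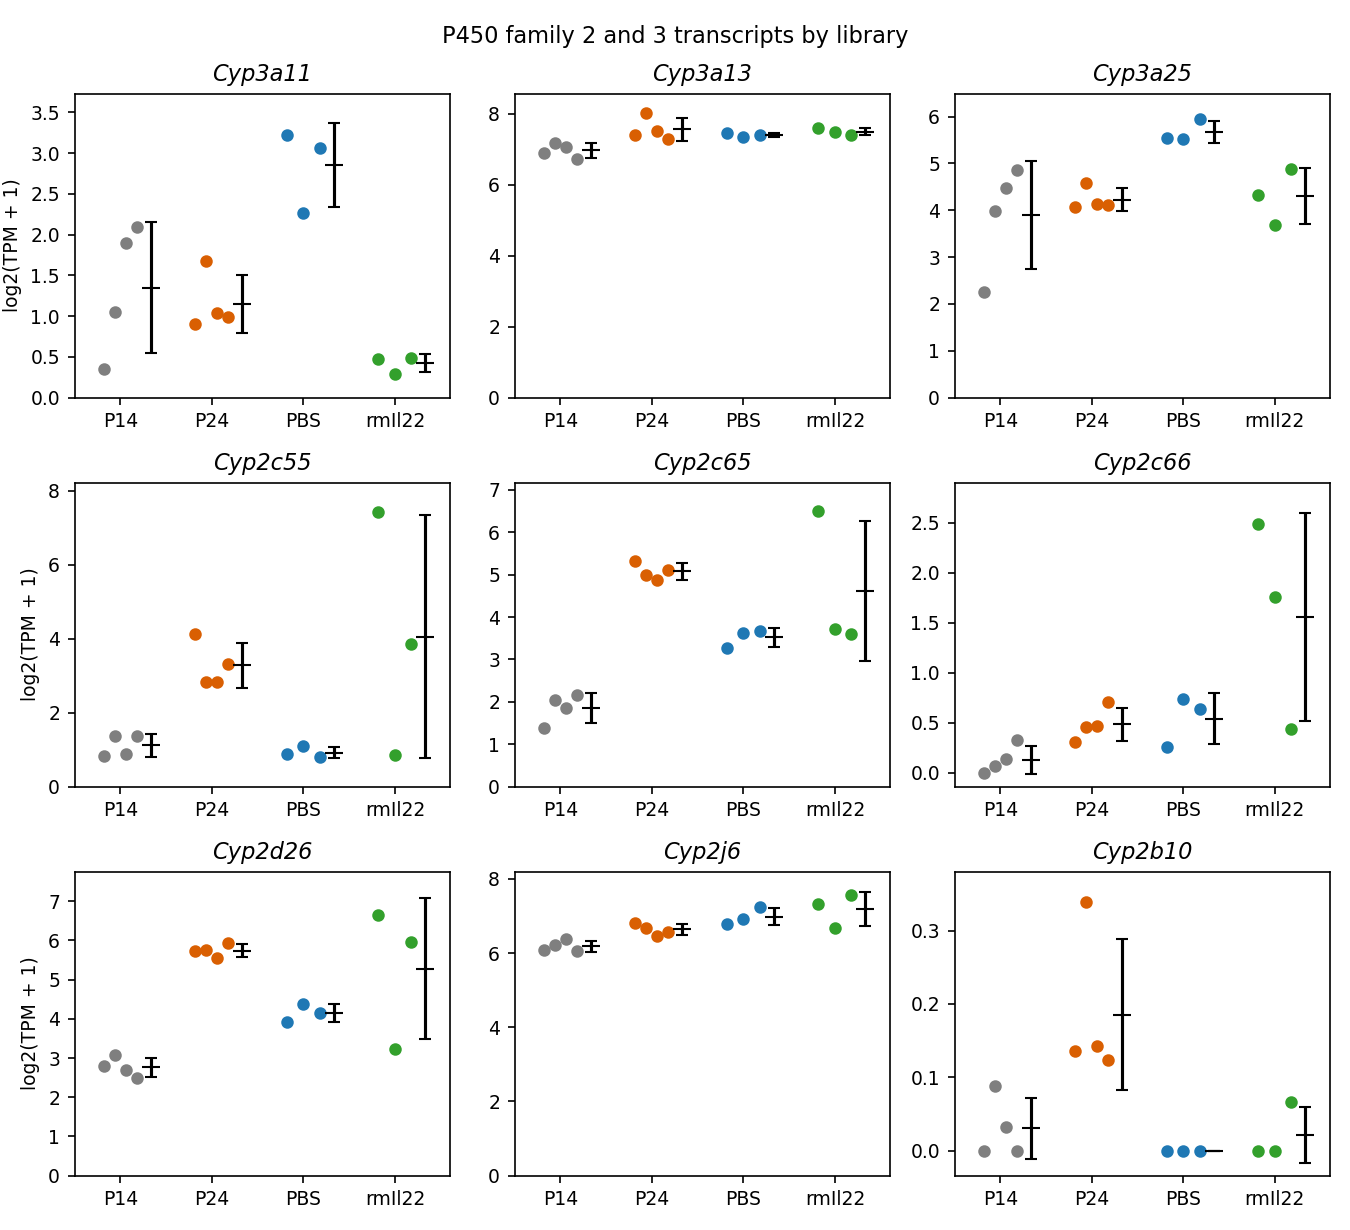
Level of 9 P450 genes on the log2(TPM + 1) scale (y axis) in each library (points) of the 4 groups (x axis), with the group mean and SD in black. Cyp2c65 and Cyp2d26 were higher in every P24 than in every P14 library, Cyp3a11 was lower in every rmIl22 than in every PBS library, and the rmIl22 libraries differed widely in Cyp2c55, Cyp2c65 and Cyp2d26.

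The first comparison, P24 with P14, asks how these enzymes differ before and after weaning. Of the 7 members tested, 5 rose and 0 fell, by limma on log2(TPM + 1) with Benjamini-Hochberg adjustment over 14651 genes. At an unadjusted p under 0.05, and by limma voom on recovered reads, 0 fell as well. Of all genes tested, 58.3% passed, 14.6% as higher and 43.7% as lower. The median log2 fold change was 0.59 over the 7 members and -0.25 over all genes. After scaling each library to the median gene, 50% of calls rather than 25.1% were higher, and the all-gene median was 0.01. All 5 members kept their call there. Cyp2c55 met the filter of 1 TPM in at least 4 libraries only through P24, where it was high. With no filter its adjusted p was 0.000821 (limma). Markers of the cells that hold these enzymes moved as well. Of 7 epithelium and enterocyte markers, 4 rose and 1 fell (limma), and their summed level ranged from 4823 to 6294 TPM in P14 and from 12547 to 16835 in P24. Krt20, a keratin of mature enterocytes, rose from 81.6 ± 15.1 to 1688 ± 161 TPM, and Epcam, the general epithelial marker, was at 2286 ± 252 and 2415 ± 281 (SD, n = 4; limma, adjusted p = 0.633). Of 5 fibroblast markers 4 fell, with sums of 597 to 1190 TPM in P14 and 357 to 487 in P24. Of 3 ileum position markers, 2 rose and 1 fell (limma). Fabp6, the ileal bile acid binding protein, was at 632 ± 383 TPM in P14 and 16886 ± 3201 in P24 (SD). Slc10a2 was at 9.87 ± 3.93 and 806 ± 82.7 TPM, and Fgf15 at 162 ± 95.3 and 60.4 ± 42.7. The part of these markers in the members' rises was not tested. Fewer cells of a type and less RNA per cell cannot be told apart in whole tissue.

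The steepest rises were in Cyp2c65 and Cyp2d26. Cyp2c65, a gut member of the Cyp2c subfamily, was at 1.6, 3.11, 2.6 and 3.47 TPM in P14 libraries 1, 2, 4 and 5. The P24 libraries 1, 2, 6 and 8 held 39.3, 30.9, 28.4 and 33.3 TPM. The groups were far apart, with means of 2.69 ± 0.811 and 33 ± 4.63 TPM (SD, n = 4 each), a ratio of 12.2. The log2 fold change was 3.22 (SE 0.17; limma, adjusted p = 2.33e-08).

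Cyp2d26, a relative of the drug-metabolising human CYP2D enzymes, was at 5.91, 7.42, 5.5 and 4.61 TPM in P14 and at 52.2, 52.7, 45.7 and 60.2 in P24. The 4 libraries of each group lay close together, at 5.86 ± 1.17 and 52.7 ± 5.9 TPM (SD), and the groups did not overlap. The log2 fold change was 2.98 (SE 0.13; limma, adjusted p = 6.43e-09).

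Cyp2c55, an arachidonic acid hydroxylase, was at 0.784, 1.59, 0.83 and 1.59 TPM in P14 and at 16.4, 6.17, 6.13 and 9 in P24. Every P24 library was above every P14 library, and library 1 was the highest. The log2 fold change was 2.17 (SE 0.26; limma, adjusted p = 3.24e-05). The call was lost when the spread was estimated over all 14 libraries (adjusted p = 0.0549). Car1, the colon marker, also rose with age, at 0.0358 to 1.57 TPM in P14 and 4.17 to 78.6 in P24, and its part in the result was not tested.

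The 2 most abundant members rose by less. Cyp3a13 was at 118, 144, 133 and 104 TPM in P14 and at 168, 258, 182 and 156 in P24, a log2 fold change of 0.59 (SE 0.16; limma, adjusted p = 0.00731). Cyp2j6 was at 66.3, 73, 82.8 and 65.2 TPM in P14 and at 112, 101, 87.7 and 94.5 in P24, a log2 fold change of 0.46 (SE 0.11; limma, adjusted p = 0.00381). In both genes all P24 libraries were above all P14 libraries. Groups did not overlap in these 5 of 7 members, against 52.4% of all genes tested, 13% higher and 39.4% lower.

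Cyp3a11 and Cyp3a25 did not pass the test with age. Cyp3a11 was at 0.274, 1.08, 2.72 and 3.28 TPM in P14 and at 0.869, 2.21, 1.05 and 0.993 in P24, with a log2 fold change of -0.2 (95% interval -0.94 to 0.54; limma, adjusted p = 0.634). Cyp3a25, a further Cyp3a enzyme, was at 3.8, 14.9, 21.2 and 28.2 TPM in P14 and at 15.7, 23.1, 16.5 and 16.4 in P24, with a log2 fold change of 0.33 (95% interval -0.62 to 1.28; limma, adjusted p = 0.535). P24 lay within the P14 range for both. The P14 libraries with the lowest Gata4, 1 and 2, were also the lowest in both genes. Xist split P14 in the same way, at 0.111 and 0.16 TPM in libraries 1 and 2 and 47 and 40.5 in libraries 4 and 5. Region and sex therefore cannot be told apart among these libraries. With the Gata4 level as a covariate, chosen after seeing the data, the log2 fold change of Cyp3a25 was 1.02 (limma, adjusted p = 0.0143) and that of Cyp3a11 was 0.39 (limma, adjusted p = 0.089). With the Xist level instead, also chosen after seeing the data, they were 0.09 (limma, adjusted p = 0.854) and -0.41 (limma, adjusted p = 0.2). Without P14 library 1, the log2 fold change of Cyp3a25 was -0.22 (limma, adjusted p = 0.365).

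Cyp2c66 and Cyp2b10 were under the filter of 1 TPM in at least 4 libraries. Cyp2c66 had 0, 2, 4 and 12 reads in P14 and 11, 13, 17 and 26 in P24, or 0.0994 ± 0.109 and 0.406 ± 0.164 TPM (SD, n = 4), and the groups overlapped. Cyp2b10 had 0, 3, 1 and 0 reads in P14 and 5, 10, 5 and 4 in P24, and the groups did not overlap. With no filter, adjusted p was 0.0231 for Cyp2c66 and 0.0464 for Cyp2b10 (limma). The authors' deposited table gives log2 fold changes of 2.28 (adjusted p = 0.00962) and 3.06 (adjusted p = 0.0369) for them.

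**Figure D2:**
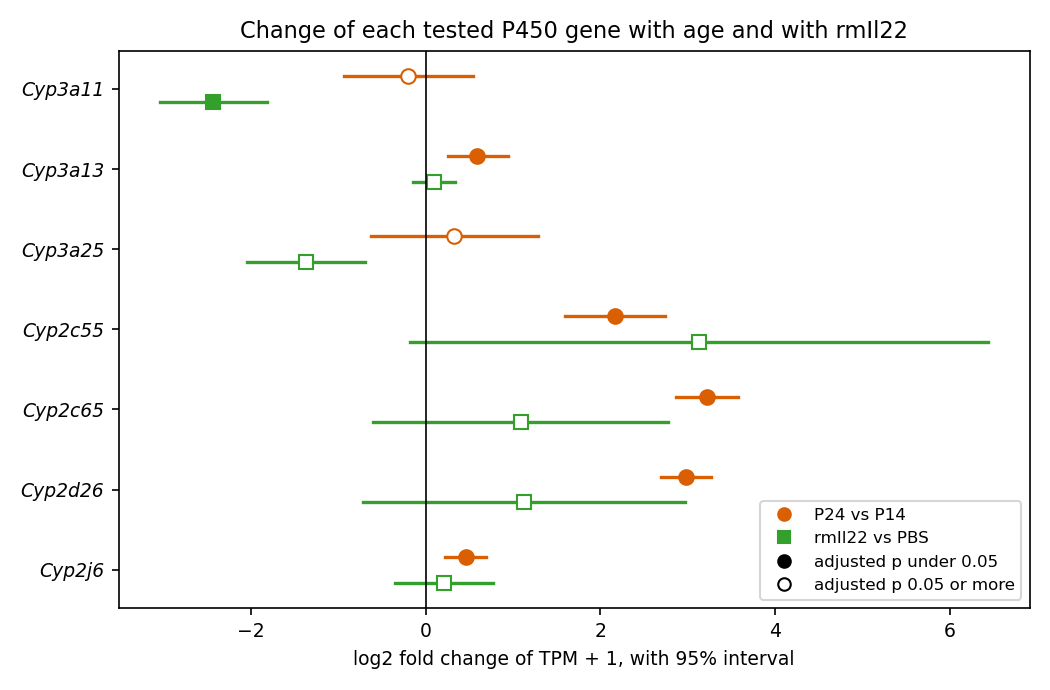
Log2 fold change of TPM + 1 (x axis) for the 7 tested P450 genes (y axis) in P24 against P14 (circles) and rmIl22 against PBS (squares), with 95% intervals. Filled symbols have an adjusted p under 0.05, and the rmIl22 intervals of Cyp2c55, Cyp2c65 and Cyp2d26 are the widest.

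The second comparison, rmIl22 with PBS, asks what injected IL-22, a cytokine that acts on epithelium through STAT3, changes before weaning. Of the 7 members tested, 1 fell and 0 rose by limma, against 2.25% of 14456 genes lower and 0.443% higher. The 1 gene, Cyp3a11, met the filter of 1 TPM in 3 libraries only through PBS, where it was high, and its adjusted p with no filter was 0.0452 (limma). At an unadjusted p under 0.05, 2 members were lower and 0 higher, and by limma voom 1 was lower and 0 higher. Of all calls 16.5% were higher, against 24% after scaling to the median gene and 28.4% after quantile normalisation. The median log2 fold change was 0.21 over the 7 members and -0.05 over all genes.

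Cyp3a11 fell. It was at 8.34, 3.8 and 7.38 TPM in PBS libraries 1, 2 and 3 and at 0.395, 0.225 and 0.407 in rmIl22 libraries 1, 2 and 3, from 448 to 910 reads against 23 to 42. The lowest PBS library was far above the highest rmIl22 library, and the mean of 6.51 ± 2.39 TPM in PBS was 19 times that of 0.343 ± 0.102 in rmIl22 (SD, n = 3). The log2 fold change was -2.43 (SE 0.26; limma, adjusted p = 0.0113). The authors' deposited table gives -4.23 (adjusted p = 5.72e-07). The limma call was lost without PBS library 1 (adjusted p = 0.0651) or library 3 (adjusted p = 0.0891), and with Xist as a covariate chosen after seeing the data (log2 fold change -2.39, adjusted p = 0.074). Gata4 was lower in rmIl22 libraries 1 and 3 than in PBS, while library 2, at 15.8 TPM of Gata4, had the lowest Cyp3a11 of all 14 libraries. With Gata4 as a covariate the log2 fold change was -2.56 (limma, adjusted p = 0.0137). This fit rests mainly on rmIl22 library 2, the only library of its group with a Gata4 level like that of PBS. That library also had 28.4 TPM of Xist, against at most 0.094 in PBS, so region and sex were not separated from rmIl22.

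Cyp3a25 did not pass the test, at 45.4, 45.2 and 60.4 TPM in PBS and 19.1, 11.9 and 28.4 in rmIl22. All 3 rmIl22 libraries were below all 3 PBS libraries, with means of 19.8 ± 8.25 and 50.3 ± 8.71 TPM (SD, n = 3). The log2 fold change was -1.37 (SE 0.29; limma, adjusted p = 0.0586), and across the alternatives tried adjusted p ran from 0.0157 to 0.277. It passed without rmIl22 library 2 (adjusted p = 0.0165) and without library 3 (adjusted p = 0.0427). Groups did not overlap in 2 of 7 members, Cyp3a11 and Cyp3a25, against 21.1% of all genes tested, 5.62% higher and 15.4% lower. The abundant Cyp3a13, at 173, 162 and 167 TPM in PBS and 192, 177 and 168 in rmIl22, had a log2 fold change of 0.1 with an interval of -0.15 to 0.34 (95%; limma, adjusted p = 0.775).

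Cyp2c55, Cyp2d26 and Cyp2c65 varied more between the rmIl22 libraries than between groups. Cyp2c55 was at 0.842, 1.13 and 0.736 TPM in PBS and at 171, 0.824 and 13.6 in rmIl22 libraries 1, 2 and 3. Cyp2d26 was at 14.2, 19.9 and 16.8 TPM in PBS and at 99.3, 8.39 and 61.2 in rmIl22. Cyp2c65 was at 8.64, 11.4 and 11.7 TPM in PBS and at 90.2, 12.1 and 11.1 in rmIl22. Library 1 was high for all 3 genes, library 3 for Cyp2c55 and Cyp2d26, and library 2 for none. The log2 fold changes were 3.13 (SE 1.41), 1.12 (SE 0.79) and 1.09 (SE 0.72), and none passed limma's test (adjusted p = 0.354, 0.604 and 0.58). The authors' deposited table gives 6.05 for Cyp2c55 (adjusted p = 5.75e-06).

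Regional markers also differed between the rmIl22 libraries. Library 1 had 1738 TPM of Car1 and 98.1 of Aqp8, a colon water channel, while library 3 had 1.66 and 0.718 and library 2 had 0.679 and 0.126. Library 2 shared the high Gata4 of the PBS libraries. Fabp6 was at 9878, 1663 and 7836 TPM in rmIl22 libraries 1, 2 and 3, against 214 to 2983 in PBS. Slc10a2 was at 366, 35.7 and 237 TPM in them, against 5.13 to 19.8 in PBS. Fgf15, also an ileum marker, was lower on average than in PBS, at 190, 70.5 and 331 TPM against 312 to 405. The part of these markers in the result was not tested beyond a Gata4 covariate, chosen after seeing the data. Without library 2, Cyp2c55 had a log2 fold change of 4.72 (limma, adjusted p = 0.014) and Cyp2d26 one of 2.15 (limma, adjusted p = 0.00163). Without library 1, the log2 fold changes were 1.45 for Cyp2c55, 0.44 for Cyp2d26 and 0.13 for Cyp2c65, and none passed limma's test, with adjusted p of 0.461 or more. With Gata4 as a covariate that of Cyp2d26 was -0.73 (limma, adjusted p = 0.262) and that of Cyp2c55 was 0.19 (limma, adjusted p = 0.946). Since Gata4 was high in every PBS library, this fit rests mainly on rmIl22 library 2 and cannot separate region from rmIl22. P14 libraries 1 and 2, at 0.119 and 0.378 TPM of Gata4, had 5.91 and 7.42 TPM of Cyp2d26, and libraries 4 and 5 had 5.5 and 4.61.

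**Figure D3:**
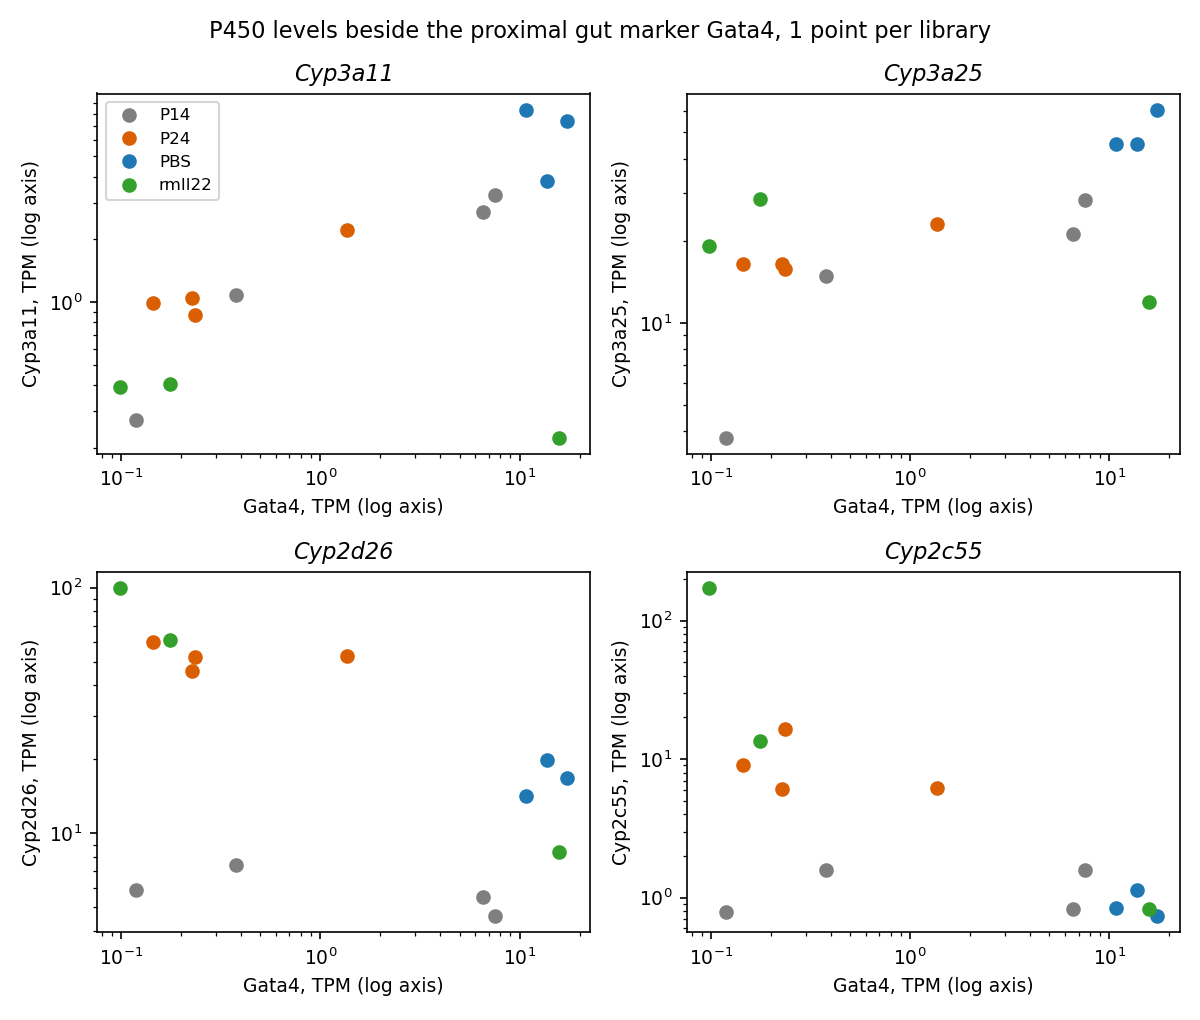
Level of Cyp3a11, Cyp3a25, Cyp2d26 and Cyp2c55 (y axes, TPM, log scale) against the proximal marker Gata4 (x axes, TPM, log scale), 1 point per library, coloured by group. The rmIl22 library at 15.8 TPM of Gata4 sits among the PBS libraries on the x axis, below them in Cyp3a11 at 0.225 TPM. The other 2 rmIl22 libraries, at 99.3 and 61.2 TPM of Cyp2d26, lie above every P24 library (45.7 to 60.2 TPM).

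Cyp2j6 was at 110, 120 and 150 TPM in PBS and at 160, 102 and 189 in rmIl22, overlapping, with a log2 fold change of 0.21 (95% interval -0.35 to 0.77; limma, adjusted p = 0.787). Cyp2c66 had 8, 30 and 19 reads in PBS and 187, 93 and 14 in rmIl22, or 0.47 ± 0.247 and 2.45 ± 2.13 TPM (SD, n = 3). Its highest library was again library 1, but library 2, low for Cyp2c65, was second. With no filter its adjusted p was 0.571 (limma). Cyp2b10 had 0 reads in PBS and 0, 0 and 2 in rmIl22, at or under the floor of 3 reads.

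The effects of age and rmIl22, which share no libraries, were compared by a contrast over all 14 libraries, taken as the age effect minus the rmIl22 effect. It passed for 2 of 7 members, both higher, against 23.8% of 15702 genes, 6.51% higher and 17.3% lower. Of all calls 27.4% were higher, and 52% after scaling to the median gene. For Cyp3a11 the difference was 2.23 on the log2 scale (SE 0.51; limma, adjusted p = 0.0073), and it was called under all 21 alternatives that gave a value (adjusted p from 0.00298 to 0.0231). For Cyp2c65 it was 2.14 (SE 0.72; limma, adjusted p = 0.045), and the call was lost in 15 of 22 alternatives, with adjusted p up to 0.119. The other 5 members did not pass, and adjusted p was 0.0728 for Cyp3a25, 0.0928 for Cyp2d26, 0.11 for Cyp3a13, 0.505 for Cyp2j6 and 0.645 for Cyp2c55 (limma). That of Cyp2d26 passed without rmIl22 library 1 (adjusted p = 0.0169) or library 2 (adjusted p = 0.0301).

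Over the 4 groups, the order of mean level differed between members. Cyp3a11 ran from PBS through P14 and P24 to rmIl22, and the neighbours P14 and P24 overlapped. Cyp3a25 was highest in PBS, apart from the other 3 groups, which overlapped in turn. Cyp2c65 and Cyp2d26 ran from rmIl22 through P24 and PBS to P14, where rmIl22 and P24 overlapped and the later neighbours lay apart. The first rank of rmIl22 in Cyp2c65 rests on library 1, since libraries 2 and 3, at 12.1 and 11.1 TPM, lay below every P24 library. In Cyp2d26 the rank is also uncertain. Libraries 1 and 3, at 99.3 and 61.2 TPM, lay above every P24 library, and library 2, at 8.39, below every PBS library. Cyp3a13 was highest in P24, overlapping rmIl22 and PBS, and lowest in P14, which lay apart from PBS. Across the 14 libraries, which share groups and regional differences, Cyp2c65 and Cyp2d26 had a Pearson r of 0.91 on log2(TPM + 1), Cyp2c55 and Cyp2d26 0.83, and Cyp3a11 and Cyp3a25 0.79. Cyp3a11 and Cyp3a13 had an r of -0.02.

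The genes most like each member, by the same r among 15702 genes, were Dpep1 (0.966) and Tstd1 (0.957) for Cyp2d26, Cnih4 (0.957) and Arl14 (0.949) for Cyp2c65, and Hsd11b2 and 2610528A11Rik (0.949 each) for Cyp2c55. For Cyp3a13 they were Sel1l3 (0.922) and Ahcyl2 (0.919), for Cyp3a25 Fam132a (0.917) and Mpp1 (0.905), and for Cyp2j6 Rab19 (0.877) and Pllp (0.867).

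The summed TPM of all Cyp2 and Cyp3 genes was alike in P14 and P24, at 494 ± 62.6 and 484 ± 49.7 (SD, n = 4), while its make-up differed. The 10 members made up 45.7 ± 2.76% of it in P14 and 83.4 ± 1.9% in P24, with 57.9 ± 3.91% in PBS and 70.4 ± 5.95% in rmIl22 (SD, n = 3). Cyp3a13 alone was 25.2% in P14 and 39.1% in P24, and Cyp2d26 was 1.18% and 11%. Cyp2c68, a further Cyp2c gene, was 32.1% in P14 and 5.21% in P24, and Cyp2w1 was 13.3% and 0.579%.

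**Figure D4:**
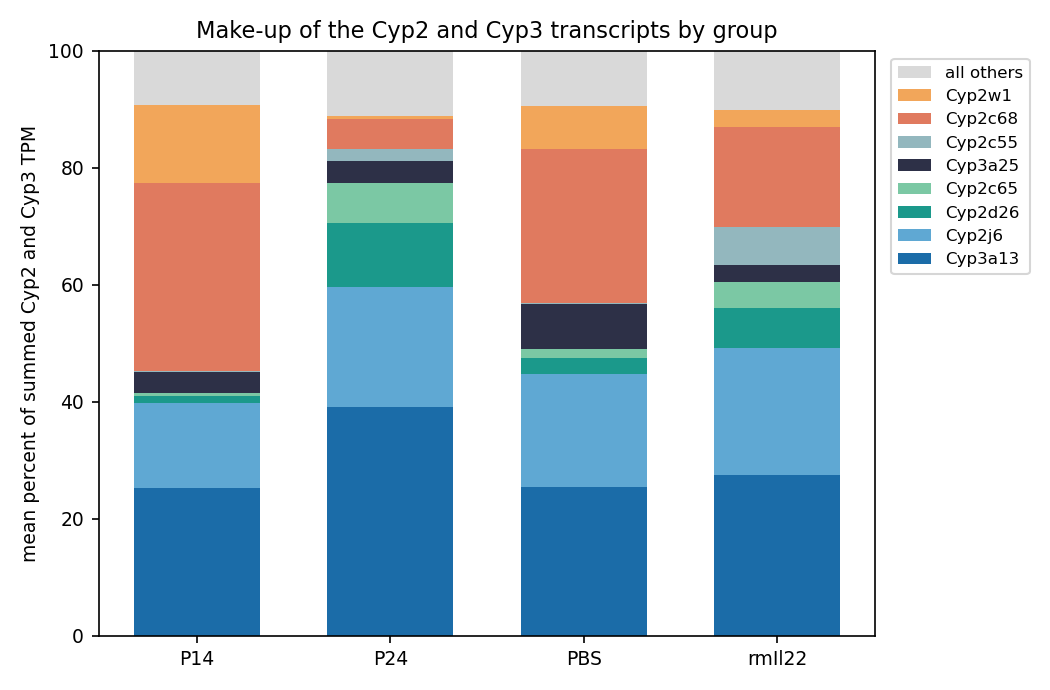
Mean percent of the summed Cyp2 and Cyp3 TPM (y axis) taken by 8 genes and by all others in each group (x axis). Cyp2c68 and Cyp2w1 filled 32.1% and 13.3% of P14 and 5.21% and 0.579% of P24, where Cyp3a13 and Cyp2j6 were the main forms.

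Of the 46 further Cyp2 and Cyp3 genes, 10 were tested with age, and 3 rose and 6 fell (limma), with a median log2 fold change of -0.62. The largest falls were in Cyp2w1, an orphan P450 known from developing gut, at 65.7 ± 10.1 TPM in P14 and 2.72 ± 0.904 in P24 (SD, log2 fold change -4.19, limma, adjusted p = 4.53e-09), in Cyp2c68 (log2 fold change -2.63) and in Cyp2c44 (log2 fold change -1.71). The rises were in Cyp2e1 (log2 fold change 2.06), which oxidises ethanol, Cyp2d22 (1.36) and Cyp2s1 (0.92). Cyp2e1 met the filter only through P24, at 2.06 to 4.96 TPM against 0.0245 to 0.24 in P14, and Cyp2c44 and Cyp2j13 only through P14, so the counts of rises and falls include genes that had to differ to be tested. With rmIl22, 0 of 9 passed limma, 2 were lower and 0 higher at an unadjusted p under 0.05, and 0 passed limma voom. The authors' deposited table gives -1.18 for Cyp2w1 (adjusted p = 0.00394), at 30.4 to 66.5 TPM in PBS and 11.5 to 30.1 in rmIl22. Of 38 genes of other P450 families, 14 were tested with age, and 6 rose and 5 fell. The rises were led by Cyp4f14 at 23.6 ± 4.18 and 624 ± 97.7 TPM (SD, log2 fold change 4.67). Among the falls, Cyp26b1 and Cyp4f17 met the filter only through P14, at means of 1.36 and 3.48 TPM against 0.554 and 1.08 in P24. With rmIl22, 0 of those 14 passed limma or limma voom, and 3 had an unadjusted p under 0.05, 1 of them higher.

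The sensors and partners of these enzymes were counted in the same way. Of 15 nuclear receptors and regulators, 3 rose and 6 fell with age (limma, median log2 fold change -0.07). CAR (Nr1i3) fell from 6.94 ± 1.07 to 1.3 ± 0.191 TPM (SD, n = 4; log2 fold change -1.78, limma, adjusted p = 4.17e-07). PXR (Nr1i2) was at 61.7 to 86.8 TPM in all 14 libraries, with adjusted p = 0.817 for age and 0.975 for rmIl22 (limma). With rmIl22, 0 of the 15 passed limma or limma voom, and 3 were lower at an unadjusted p under 0.05. CAR was at 8.02 TPM in PBS and 3.92 in rmIl22 on average (log2 fold change -0.92, limma, adjusted p = 0.0896). Vdr, the vitamin D receptor, rose with age (log2 fold change 1.75).

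Of 14 genes of electron transfer and heme supply, 3 rose and 7 fell with age (limma, median log2 fold change -0.27). Alas1, the first enzyme of heme synthesis, rose (log2 fold change 0.88, limma, adjusted p = 0.000926), and Hmox1, which breaks heme down, fell from 25.9 ± 4.28 to 2.24 ± 0.214 TPM (SD, n = 4; log2 fold change -3.04). Hmox1 was also the 1 gene of this list called with rmIl22 (log2 fold change -1, limma, adjusted p = 0.0474), and 0 of the 14 passed limma voom. Por, the electron donor, had adjusted p = 0.234 for age and 0.599 for rmIl22 (limma).

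Of 20 tested non-P450 enzymes and pumps, 8 rose and 6 fell with age, led by the carboxylesterase Ces2c (log2 fold change 4.95) and the export pump Abcc2 (log2 fold change -3.62). Among the rises, Ces1f met the filter only through P24, at 8.99 to 15.2 TPM against 0.261 to 1.42 in P14. With rmIl22, 3 of 20 fell, among them Abcc2 (log2 fold change -1.40, limma, adjusted p = 0.00769) and the sulfotransferase Sult1d1 (log2 fold change -1.12, limma, adjusted p = 0.0256). Of 9 tested genes of inflammation, 5 rose with age and 2 with rmIl22. Nos2, Saa2 and Tnf met the filter with age only through P24. With rmIl22, Nos2 met it only through rmIl22, at 5.88 to 24.3 TPM against 0.579 to 1.05 in PBS. These counts therefore include genes that had to be high in 1 group to be tested. Saa1, an acute-phase protein, was at 7.28 to 27.8 TPM in PBS and 1634 to 1882 in rmIl22 (log2 fold change 6.61, limma, adjusted p = 0.00432), and Nos2, the inducible nitric oxide synthase, had a log2 fold change of 2.93 (limma, adjusted p = 0.0204).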

How the data were processed

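Per the labels' protocols, whole ileum gave ribosome-depleted RNA for a stranded kit. The values used are TPM from the authors' deposited table. Per the submitters' processing notes the tools included FastQC 0.11.2, STAR 2.4.0f, HTSeq 0.6.1p1 and DESeq2 1.14, with mm10 as genome. How these were set and which annotation release was counted is not given in the sources used here. The authors' deposited comparison tables give, with decimal commas, the log2 fold change and adjusted p-value of the genes they list, 23529 for age and 1102 for rmIl22. They gave values for 8 members with age and, with rmIl22, for Cyp3a11 and Cyp2c55. The age table lists neither Cyp2c29 nor Cyp2c65, so the rise of Cyp2c65 has no deposited value to set beside it. The P14 and P24 columns carry numbers that are not the labels' replicate numbers and were assigned to their group only, and libraries are named by these numbers.

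Of 46882 entries, 27 with symbols turned into dates were left out (at most 0.0776% of a library's TPM). Low TPM values are multiples of the worth of 1 read, and this gave whole reads (tolerance 0.01) for all 31189 entries above 0, with a median total of 42.6 M per library. They are the smallest whole numbers in proportion, so reads with a common factor are undercounted. A floor of 3 reads was used where a gene had none, which covers counting error only.

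Tests were two-sided and used limma 3.58.1 (R 4.3.3), with the prior variance following the mean level, on log2(TPM + 1), which understates the change of low genes. Genes needed at least 1 TPM in 4 (age) or 3 (rmIl22 and the difference) libraries. Benjamini-Hochberg adjustment covered every gene tested, and calls had an adjusted p under 0.05. The fit was also run on simulated counts with the same spread for every gene and no regional or sex differences between libraries. Because these libraries do differ in such markers, that run cannot show how the fit performs here. All 10 members are described, and from each list the largest called rises and falls are named, up to 3 each way for P450 genes and 2 for other lists. PXR, CAR, Por, Cyp2j5, Cyp2d12, Cyp2d34, Cyp3a16, Cyp3a44, Cyp26b1, Saa2 and Tnf are named as well and were chosen after their values were seen. Members and lists were chosen with earlier results of these data known. Alternatives were a pseudocount of 0.1, no filter or one of 5 TPM, median scaling, quantile normalisation, limma voom on recovered reads, a fit of all 14 libraries, each library left out, a replicate block, and covariates for Xist and Gata4, the last 2 chosen after seeing the data. Positions are from GENCODE M21 and promoters from RefSeq GRCm38.p6.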

Additional observations from a re-analysis of the deposited data

Results flagged for a closer look

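In groups of 4 libraries, the highest or lowest was compared with the spread of the others by Dixon's ratio for 9 members in P14 and P24, 18 groups in all, and chance singles out about 1 in 20 groups. P24 library 2 stood above the other 3 in Cyp3a11 (2.21 TPM against 0.869 to 1.05), Cyp3a25 (23.1 TPM against 15.7 to 16.5) and Cyp2b10 (0.265 TPM, from 10 reads, against 0.0895 to 0.104). The same library had the highest Gata4 of the P24 group, at 1.36 TPM against 0.145 to 0.235, and the highest Cyp3a13, at 258 TPM.

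The age and rmIl22 effects differed by the contrast over all 14 libraries for Cyp3a11, by 2.23 on the log2 scale (limma, adjusted p = 0.0073), and for Cyp2c65, by 2.14 (limma, adjusted p = 0.045). Cyp3a11 was lower in 3 of 3 rmIl22 libraries than in any PBS library and overlapped between P14 and P24. Cyp2c65 was higher in 4 of 4 P24 libraries than in any P14 library, and only rmIl22 library 1 stood far above PBS.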

How the results depend on the processing

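Of 381 results of single members under an alternative, 334 kept their direction and side of the threshold, 19 lost a call, 20 gained one and 8 reversed. The causes were not tested. The 5 rises with age kept their call in all but 1 alternative, Cyp2c55 in the fit of all 14 libraries. The reversals were, for Cyp3a11 with age, 0.02 under quantile normalisation, 0.05 without P14 library 5 (-0.53 to 0.05 with 1 library left out) and 0.39 with Gata4; for Cyp3a25 with age, -0.22 without P14 library 1 (-0.22 to 0.65); for Cyp2d26 and Cyp2j6 with rmIl22, -0.73 and -0.22 with Gata4; and for the difference, 0.72 for Cyp2c55 without rmIl22 library 1 (-2.56 to 0.72) and -0.01 for Cyp2j6 without rmIl22 library 2 (-0.01 to 0.43).

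Genes called with rmIl22 numbered 389, against 98 with no filter, 1058 in the fit of all 14 libraries, 28 with Xist as a covariate, and 4 to 1324 with 1 library left out (4 without PBS library 3, 14 without PBS library 1, 1324 without rmIl22 library 2). With 1 library left out, 0 to 2 members were lower and 0 to 2 higher. With Xist, 1 member was higher (Cyp2c65, log2 fold change 2.96) and 0 lower, and with Gata4 2 were lower. For the difference, 1 member was called higher with no filter and with the 5 TPM filter and 4 after median scaling. With 1 library left out, 1 to 3 were higher and 0 to 1 lower, and 2386 to 5023 genes were called against 3734.

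PBS and rmIl22 share replicate numbers. The deviations of same-numbered libraries had correlations of -0.07, 0.33 and -0.05, and only library 2 correlated best with its own number. With 3 libraries per group, this cannot show whether same-numbered libraries were paired. With the number as a replicate block, 2 members were lower (Cyp3a25 as well, adjusted p = 0.0249 by limma) and 280 genes were called. No paired analysis was possible for age because the columns carry no replicate numbers of the labels. Cyp2b10, Cyp2c66 and Cyp2c29 are limited by read counts of at most 10, 187 and 0.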

Other observations

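Some further Cyp2 and Cyp3 genes, too low for the age and rmIl22 tests, also differed between groups or libraries. Cyp3a16, 92.8% identical in coding sequence to Cyp3a11, had 29, 42 and 31 reads in PBS and 0 in each rmIl22 and P24 library. Its mean of 0.948 ± 0.144 TPM in PBS (SD, n = 3) was at least 11-fold higher than the level of 3 reads per rmIl22 library. Cyp3a44, 94.9% identical to Cyp3a11, was at 0.724, 5.28, 2.85 and 1.81 TPM in P24 libraries 1, 2, 6 and 8 and at most 0.0252 elsewhere. P24 library 1 was the 1 library of that group with Xist near 0 (0.107 TPM, against 34.9 to 73).

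Cyp2j5 was at 8.18, 0.085 and 17.1 TPM in rmIl22 libraries 1, 2 and 3 and at most 0.577 in the other groups. Cyp2d34 was at 4.58, 0.277 and 0.73 TPM in rmIl22 libraries 1, 2 and 3 and at 0 to 0.0576 in PBS. Cyp2d12 was at 0.802, 0.34 and 1.04 TPM in them, from 27, 11 and 34 reads, and at 0 to 0.107 in PBS. As for Cyp2c55 and Cyp2d26, library 2 was the lowest of the 3. The authors' deposited table gives log2 fold changes of 5.51 for Cyp2j5 (adjusted p = 7.51e-05), 5.93 for Cyp2d34 (adjusted p = 7.23e-05) and -7.47 for Cyp3a16 (adjusted p = 0.000287) in this comparison. For Cyp2d12 it gives 3.89 (adjusted p = 7.56e-05).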
